A study of Danio rerio with 12 samples.

Results

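The factors that start, drive and end protein synthesis were followed across the testis, the ovary and the rest of the body of adult zebrafish. Members were the probe sets of the Affymetrix zebrafish array whose single annotated gene symbol opened with eif1 to eif6, eef1, eef2 or etf1, and the kinases of the eif2ak series were left out. This gave 81 probe sets of 64 genes among the 15502 probe sets analysed, which name 8793 genes singly. Of these genes 52 had 1 probe set and 12 had several, which measure parts of the same gene and are not independent of each other. All 81 probe sets had the same symbol in RefSeq. Another 2 probe sets that fit the rule carried several symbols and were not used.

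The study compared 4 groups of wild-type AB fish, with 3 samples and 3 arrays in each: testis, male body from which the testes had been taken, ovary, and female body from which the ovaries had been taken. No group carried an engineered allele or received a drug. All fish were full siblings of 4 to 12 months, and the sexes had been kept apart for 5 days after spawning. Each gonad sample was the gonad pair of an individual fish, and the sources used here do not say outright that a gonad and a body with the same number were 1 animal.

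Eukaryotic initiation begins when eIF4E binds the cap of an mRNA and, with the scaffold eIF4G and the helicase eIF4A, recruits the small ribosomal subunit, which carries eIF3, eIF1A and the initiator tRNA held by eIF2. Then eIF5 and eIF5B help eIF2 to leave and the large subunit to join. During elongation eEF1A brings aminoacyl-tRNAs and eEF2 moves the ribosome along, and eRF1, the product of etf1 genes, reads the stop codon. Oocytes are known for storing mRNAs under translational repression until maturation, and germ cells of several animals use their own forms of eIF4E and eIF4G. Many factors exist as 2 or more paralogs in zebrafish, so a gonad form can be set against a more general form of the same factor.

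The labels were checked against marker genes, each represented only by its probe set of highest mean log2 signal. The 7 sperm and axoneme markers with a named probe set, among them the synaptonemal complex gene sycp3, summed to between 28500 and 35660 on the testis arrays. Elsewhere they summed to at most 551.2. The 9 oocyte markers summed to between 85080 and 95140 in ovary, 306.1 and 661.9 in male body, and 1465 and 1855 in testis, and 2 of them lay at the floor on all male body arrays. On the female body arrays they summed to between 33080 and 72370, and their median was 77.1%, 49.5% and 33.6% of the ovary mean on female body 1, 2 and 3. The 9 muscle markers on the same arrays had medians of 48%, 64.6% and 92.9% of the male body mean. Transcripts of the oocyte markers were therefore measured in all 3 female bodies, most in the first, and comparisons with female body are given beside the same comparison with male body. Some of these markers are egg coat genes, for which the paper also reports high female body expression. The paper considers contamination with ovarian tissue unlikely, and the source of these transcripts was not tested here. In whole tissues, a lower level of a transcript because a cell type is scarcer cannot be told apart from less RNA per cell.

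Values are signals on a linear scale, and a signal below 32, the floor, was set to 32 before log2 values were taken. Each array had been scaled to the same trimmed mean, yet the ovary arrays differed in shape: their median signals were 103 to 128.7 against 183.8 to 208.4 on the other arrays, and 33% to 35.7% of their probe sets were at the floor against 10.4% to 18.4%. Every test was therefore repeated after quantile normalization and after dividing arrays by their medians (median centring), and a difference is said to hold with all 3 scalings when it had the same direction and an adjusted p under 0.05 in each. Differences are in log2 units with their standard error (SE), and adjusted p-values are from limma with Benjamini-Hochberg adjustment over all probe sets tested.

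Between the gonads, 39 of the 81 probe sets were male-enriched (higher in testis than in ovary), 22 were female-enriched and 20 were not called. Of the 13965 probe sets in this test, 42.5% were male-enriched and 24.4% female-enriched, so the split of the factors was close to that of the array. The testis and ovary values did not overlap for 40 factor probe sets higher in testis and 22 lower (45.2% and 26.2% of all). The median difference was 0.48 for the factors and 0.36 for all probe sets. With median centring the factors' median fell to -0.32 and their split to 15 higher and 34 lower. All probe sets moved the same way, from 5934 higher and 3413 lower to 3812 and 5366, with a median of -0.15. With all 3 scalings 15 probe sets were higher and 17 lower in testis, against 24.2% and 24.6% of all probe sets. Those 15 came from 10 genes: eef1a1a, eef2l2, eef2k, eef1db, eif4g3a, eif4a1b, eif3c, eif3hb, eif2d and eif1axb. The 17 on the ovary side included probe sets of eef1a1l3, eif4enif1, eif4ebp3l, eif4e3, eif4ea, eif4g2a, eif1axa and eif5a2, and another probe set of eif1axb.

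**Figure D1:**
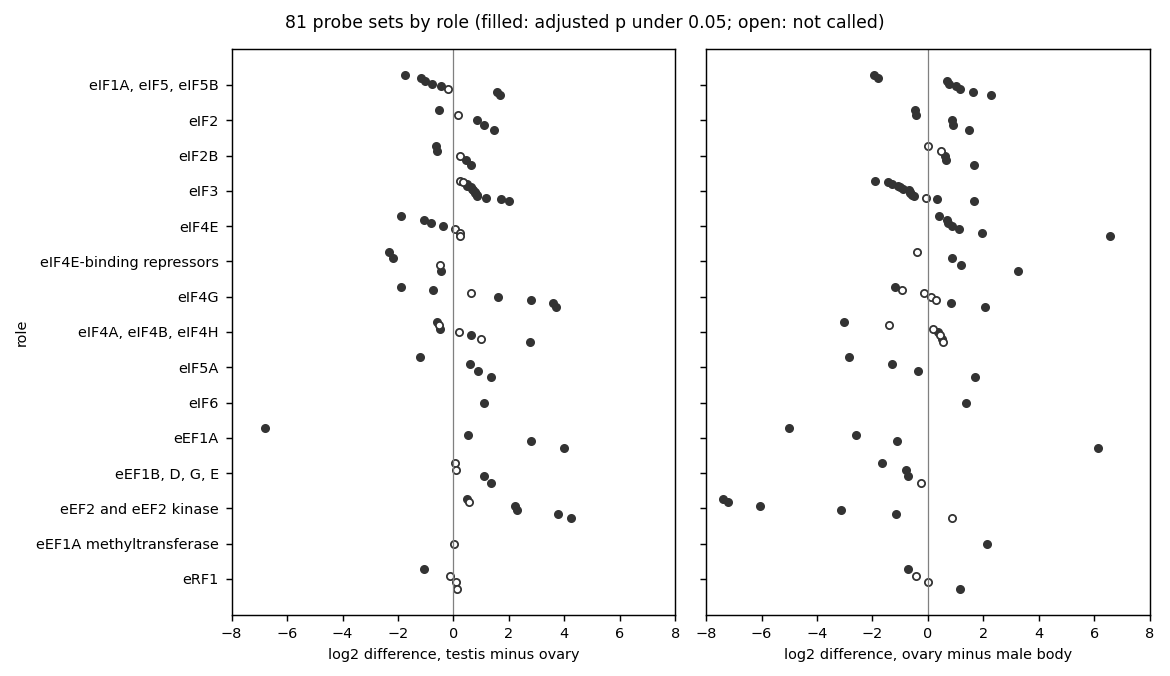
Log2 difference of each of the 81 probe sets (points) by role, testis minus ovary at left and ovary minus male body at right; filled points have an adjusted p under 0.05 and open points do not. Most points lie within a few log2 units of 0, while single probe sets of eIF4E, eIF4G, eEF1A and eEF2 lie far out, down to -6.78 for eef1a1l3 at left and up to 6.57 for eif4e1b at right.

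The largest paralog difference among cap-binding proteins was that of eif4e1b, a germline form of eIF4E that in Xenopus oocytes sits in a repressive complex. Its signals were 2332, 2084 and 2569 in testis and 2933, 3286 and 2901 in ovary. On the male body arrays they were 5, 10.1 and 10, all under the floor. The female body arrays lay between, at 1571, 1058 and 599.6. Both gonads were thus high and the male body had no signal above the floor on any array. The transcript was at least 72.5-fold higher in testis than in male body (log2 6.18, SE 0.18, adjusted p = 5.69e-07) and at least 94.8-fold higher in ovary than in male body (log2 6.57, SE 0.14, adjusted p = 1.8e-07). The difference between the gonads was small, at -0.39 in testis against ovary (SE 0.12, adjusted p = 0.0229), and its call was lost with quantile normalization (adjusted p = 0.0698), with the replicate number as a block (adjusted p = 0.0649), in a fit of all 12 arrays (adjusted p = 0.231) and when testis 1, testis 2, ovary 1 or ovary 2 was left out (-0.46 to -0.31 over the 6 fits without 1 array). Against female body the ovary was higher by 1.60 (SE 0.33, adjusted p = 0.00522), and female body itself exceeded male body at least 31.2-fold (adjusted p = 1.09e-04).

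The other eIF4E genes moved within a narrower range. eif4ea, a general cap-binding form, had signals of 1962, 1660 and 1885 in ovary, 826.5, 843 and 950 in testis and 460.2, 472.7 and 497.2 in male body. These 3 groups did not overlap. eif4ea was 3.84-fold higher in ovary than in male body (log2 1.94, SE 0.13, adjusted p = 1.07e-05) and 1.83-fold higher in testis than in male body (adjusted p = 0.00144). Both probe sets of eif4e1c, another gene of the same class, were higher in testis than in male body, by 1.35 (SE 0.18) and 0.96 (SE 0.16), and so was eif4e2rs1, whose name places it with eIF4E2, a cap-binding protein known from mammals as a repressor, by 0.91 (SE 0.17). eif4e3, the class III form, went the other way in males. Its better separated probe set gave 110.3, 189 and 108.8 in testis, 283.8, 268.5 and 364.1 in male body and 519.1, 461.9 and 494.9 in ovary. It was lower in testis than in male body by 1.2 on the log2 scale (SE 0.28, adjusted p = 0.00783) and higher in ovary than in male body by 0.70 (SE 0.17, adjusted p = 0.00805).

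As a group, all 7 eIF4E probe sets were higher in ovary than in male body, where 31.2% of all probe sets were called higher and 43% lower. Of the 7, 6 held with all 3 scalings (30.4% of all). In testis against male body 5 were higher and 2 lower, the background being 29.2% and 29.9%. All 7 calls held with all 3 scalings (26% of all higher and 26.1% lower). The 2 that were lower were both of eif4e3, and the call of the other probe set (-0.42, adjusted p = 0.0493) was lost in each of the 6 fits that left out 1 array and with the replicate block (adjusted p = 0.0572).

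**Figure D2:**
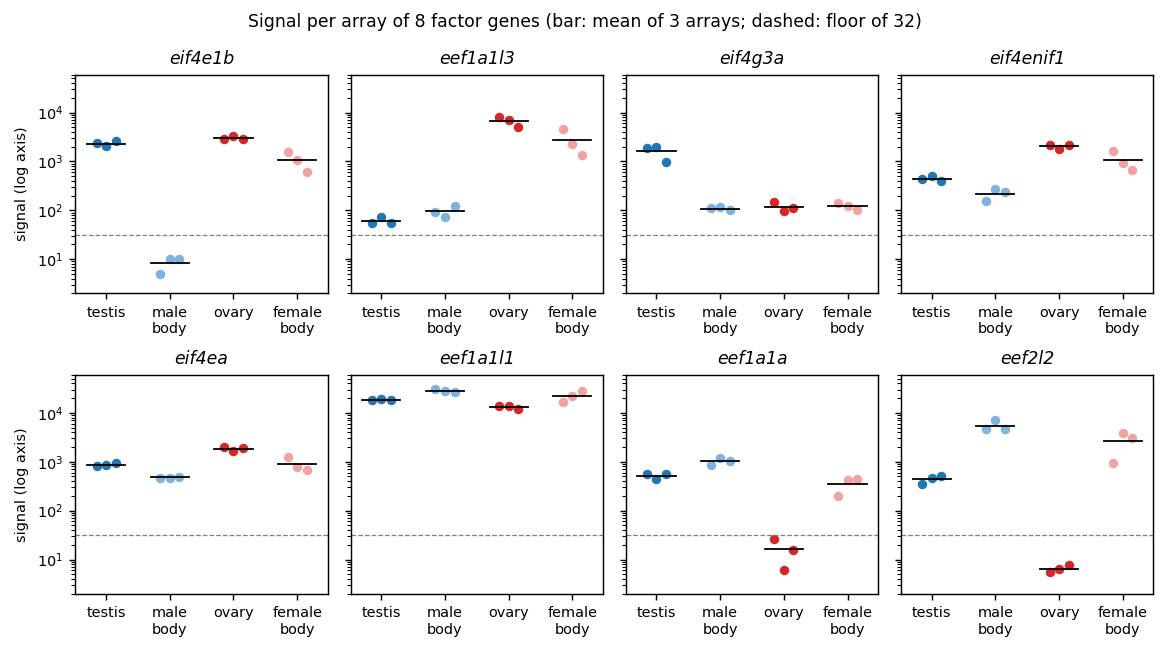
Signals of 8 factor genes on each of the 12 arrays (points, log axis), by group, with the mean of 3 arrays as a bar and the floor of 32 as a dashed line. eif4e1b is under the floor in male body only, eef1a1l3 is high in ovary and female body, eif4g3a in testis, and eef1a1a and eef2l2 are under the floor in ovary only.

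Among proteins that bind eIF4E and block its use, eif4enif1 and eif4ebp3l were far higher in ovary than in testis. eif4enif1 encodes the eIF4E transporter 4E-T, a partner of stored mRNAs in Xenopus oocytes. It gave 2184, 1795 and 2122 in ovary, 439.3, 499.9 and 397.2 in testis, 155.9, 268.8 and 232.9 in male body, and 1664, 917 and 661 in female body. Ovary was above every array of the other 3 groups. The ovary level was 4.57-fold that of testis (log2 difference of testis against ovary -2.19, SE 0.15, adjusted p = 2.18e-05) and 9.48-fold that of male body (log2 3.25, SE 0.23, adjusted p = 1.52e-05). Its excess in ovary over female body, 1.01 (SE 0.33, adjusted p = 0.0298), was not called in 5 of the 6 fits without 1 array and did not hold with all 3 scalings. Testis was also above male body, by 1.05 (SE 0.25, adjusted p = 0.00783). eif4ebp3l, a gene of the 4E-BP family, had 2583, 2574 and 2261 in ovary against 374.4, 678.2 and 458.4 in testis (log2 -2.34 in testis against ovary, SE 0.22, adjusted p = 9.87e-05). Its body levels overlapped between the sexes, at 614 to 1604 in males and 932.3 to 2280 in females.

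Of the 4 probe sets in this role, 3 were female-enriched (24.4% of all probe sets) and 1 was not called, and the 3 calls held with all 3 scalings (24.6% of all). eif4ebp1 differed less, by -0.45 (SE 0.12, adjusted p = 0.014), while eif4ebp2 gave -0.47 (SE 0.22, adjusted p = 0.102). Their levels in testis against male body were split: eif4ebp2 was lower by 0.87 on the log2 scale (adjusted p = 0.00306) and eif4ebp3l lower by 1.14 (adjusted p = 0.0343, lost in 4 of the 6 fits without 1 array), eif4enif1 was higher, and eif4ebp1 was higher by 0.42 (adjusted p = 0.0313) with the call lost under the replicate block (adjusted p = 0.0512), with both other scalings and in 4 of the 6 fits without 1 array.

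Among scaffolds, eif4g3a stood out in testis. Genes of this name encode eIF4GII, which in the mouse is needed for male meiosis. Its 3 probe sets gave 1916, 1959 and 963.2; 1403, 1121 and 533.3; and 1278, 1468 and 797.4 on testis 1, 2 and 3. All values in the other 3 groups lay between 39 and 214.1. Every testis array was therefore above every other array for each probe set, and testis 3 was the lowest of the 3 testes each time. Testis exceeded ovary by 3.71 (SE 0.32, adjusted p = 6.03e-05), 3.58 (SE 0.38) and 2.81 (SE 0.36), and male body by 3.82 (SE 0.29, adjusted p = 3.16e-05), 3.86 and 2.67, and all these calls held with all 3 scalings. On testis 3 these probe sets were at 52.3% to 67.5% of the testis mean. The 7 sperm and axoneme markers there had a median of 86.1% and ran from 45.8% to 116%, a range that includes the eif4g3a values. The markers include sycp3, a gene of the synaptonemal complex. No difference in eif4g3a was called between ovary and female body, at -0.04 to 0.23 with adjusted p-values of 0.561 or more.

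The paralog eif4g3b was male-enriched by 1.61 (SE 0.53, adjusted p = 0.0306), with 563.7, 311 and 225.6 in testis and 194.5, 55.7 and 127.1 in ovary. The groups did not overlap, but the call was lost in 4 of the 6 fits without 1 array and with both other scalings (0.98 and 0.81). eIF4G2 (DAP5) is a scaffold without the eIF4E-binding site. Its gene eif4g2b was 3637, 3401 and 3891 there and 2218, 2428 and 1981 in testis (log2 -0.72 in testis against ovary, SE 0.12, adjusted p = 0.00121). For eif4g2a the brighter probe set gave 4693, 3904 and 3995 in ovary and 840, 1479 and 1116 in testis, a 3.75-fold difference (adjusted p = 1.95e-04). The dimmer one gave 117.6, 138.8 and 165.3 in ovary and 239, 320.4 and 428.7 in male body. The probe sets were thus called in opposite directions in ovary against male body (2.05 and -1.2) and against female body (0.89 and -1.07), and no single direction is given for this gene.

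The helicase eIF4A, which unwinds leader RNA, was measured through several genes. eif4a1b was low in ovary, at 703.4, 640.6 and 761.1, against 4593, 4793 and 4690 in testis, 7165, 4969 and 5236 in male body and 2734, 3718 and 4149 in female body. All ovary values lay below all values of the other groups. The gene was 6.70-fold higher in testis than in ovary (log2 2.75, SE 0.11, adjusted p = 2.81e-06) and lower in ovary than in male body (log2 -3.03, SE 0.17, adjusted p = 5.78e-06). Its paralog eif4a1a had another pattern: the brighter probe set gave 3336, 3246 and 3800 in ovary and 2540, 3255 and 3536 in male body (0.16, SE 0.15, adjusted p = 0.348), and was lower in testis than in ovary by 0.47 on the log2 scale (adjusted p = 0.0386), a call lost in 5 of the 6 fits without 1 array. This call did not hold with all 3 scalings. The second eif4a1a probe set varied widely, from 235 to 1001 within ovary and from 530 to 1959 within male body, and was called in no comparison. With the replicate block in limma it was higher in testis than in ovary (adjusted p = 0.0121), lower in ovary than in male body (adjusted p = 0.00316) and higher in male than in female body (adjusted p = 0.0331). These comparisons cross the sexes, so the block joined different fish that shared only a number.

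eif4a3, the helicase of the exon junction complex, gave 1812, 2138 and 1806 in male body and 4292, 3231 and 4013 in testis (log2 1.00, SE 0.15, adjusted p = 9.74e-04). It was also higher in testis than in ovary by 0.63 (adjusted p = 0.004), a difference that became -0.17 with median centring. eif4a2 was above male body in testis by 0.63 (adjusted p = 0.0257), a call lost in 3 of the 6 fits without 1 array. The eif4a2 call did not hold with all 3 scalings. Of the cofactors that stimulate eIF4A, eif4bb was female-enriched (-0.58 in testis against ovary, SE 0.12, adjusted p = 0.00356), whereas eif4h was called in no comparison.

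eIF1A scans for the start codon, and it was measured through 2 genes. Both eif1axa probe sets were female-enriched: the brighter gave 1584, 2285 and 1776 in ovary and 448, 564 and 688 in testis (log2 -1.74, SE 0.21, adjusted p = 3.07e-04). Both were also higher in ovary than in male body, by 2.28 and 1.64. For eif1axb 2 of 3 probe sets were male-enriched by 1.58 and 1.67. The brightest was female-enriched like eif1axa (-0.79, SE 0.13, adjusted p = 0.00158), with all 3 scalings, and was higher in ovary than in male body by 0.75. The gene as a whole thus has no single direction. eif5, the activator of the eIF2 GTPase, was higher in both gonads than in male body, by 0.57 in testis (adjusted p = 0.00671) and 1.03 in ovary (adjusted p = 5.74e-05). The subunit-joining GTPase eif5b was higher in ovary than in male body with both probe sets (1.15 and 0.68), the second losing its call with quantile normalization (adjusted p = 0.0854).

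The eIF2 role grouped the subunit genes eif2s1a, eif2s1b and eif2s2 with eif2a and eif2d, which do not encode subunits of eIF2. All 5 probe sets of this role were higher in testis than in male body (29.2% of all probe sets), with a median of 0.96. Of them 3 held with all 3 scalings (26% of all): eif2a, eif2d and eif2s1a, of which only eif2s1a is a subunit gene. The call for eif2s2, the beta subunit, was lost in each fit without 1 array and under the block (0.40, adjusted p = 0.0627 with the block). eif2d, which can deliver tRNA to the ribosome apart from eIF2, had 997.6, 1024 and 1085 in testis against 160.3, 239.3 and 206.4 in male body and 399.9, 369.3 and 351.4 in ovary. It was 5.19-fold higher in testis than in male body (log2 2.38, SE 0.19, adjusted p = 4.17e-05) and 2.77-fold higher than in ovary (adjusted p = 7.65e-05). The 2 genes of the alpha subunit were called in opposite directions between the gonads, neither with all 3 scalings. eif2s1a gave 1175, 1330 and 1459 in ovary and 1004, 768 and 994 in testis (-0.52 in testis against ovary, SE 0.16, adjusted p = 0.0223, lost in 3 of the 6 fits without 1 array and with quantile normalization, adjusted p = 0.0553), while eif2s1b gave 760, 854 and 766 in ovary and 1472, 1530 and 2146 in testis (1.09, SE 0.17, adjusted p = 0.00114), which became 0.29 and was not called with median centring.

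Of the 5 genes of eIF2B, the exchange factor that recharges eIF2 with GTP, eif2b1, eif2b3 and eif2b5 were higher in testis than in male body by 1.07 to 1.12, each with all 3 scalings, and eif2b2 and eif2b4 gave 0.00 and 0.24 without a call. In ovary against male body eif2b3 showed the highest difference of the role, 1.65 (SE 0.20, adjusted p = 2.53e-04), with signals of 885, 1156 and 742 against 330, 284 and 265.

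The eIF3 complex, which holds the small subunit on the mRNA, was measured by 14 probe sets of as many genes. Here 12 of 14 were male-enriched with a median of 0.73 and none was female-enriched, against 42.5% and 24.4% of all probe sets, but with median centring the median was -0.07 and only 2 were higher and 1 lower. Over all probe sets 3812 were then higher and 5366 lower, against 5934 and 3413 in the main fit. In ovary against male body 11 were lower and 2 higher (43% and 31.2% of all probe sets), with a median of -0.68 that became 0.03 with median centring. The direction of the complex as a whole in ovary was thus not settled by these arrays. In testis against male body 12 of 14 were not called and the median was 0.07, where 59.1% of all probe sets were called in either direction. Quantile normalization called 7 of the 14 higher. Of all probe sets, 4273 were higher with quantile normalization and 4366 in the main fit.

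Single eIF3 genes did stand apart. eif3c, a core subunit, gave 745.5, 517.2 and 771.4 in ovary against 2600, 3040 and 2485 in testis, 2518, 2815 and 2241 in male body and 1676, 2222 and 2405 in female body. All ovary values were below all others. It was 4.04-fold higher in testis than in ovary (log2 2.02, SE 0.19, adjusted p = 8.16e-05), with all 3 scalings. eif3eb, one of a pair of genes for subunit e, was high in both gonads, at 710.7, 713.1 and 982.4 in testis and 557.2, 503.8 and 444.2 in ovary against 170.9, 152.3 and 147.1 in male body. Its difference was 2.34 in testis (SE 0.20, adjusted p = 5.23e-05) and 1.68 in ovary (SE 0.16, adjusted p = 7.9e-05), and the paralog eif3ea did not follow, at -0.06 and -0.56. eif3hb was male-enriched by 1.73 (SE 0.25, adjusted p = 7.16e-04), whereas its paralog eif3ha gave 0.24 (adjusted p = 0.0902).

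eif6, which keeps free large subunits from joining small ones, was highest in testis. Its signals were 4104, 3159 and 3107 in testis, 1451, 1611 and 1775 in ovary, 490.8, 708.5 and 661.9 in male body and 967.1, 893.1 and 707.4 in female body. The testis, ovary and male body groups did not overlap. The testis was 5.59-fold above male body (log2 2.48, SE 0.19, adjusted p = 3.28e-05) and the ovary 2.62-fold (log2 1.39, SE 0.18, adjusted p = 3.1e-04), and both held with all 3 scalings. The excess of testis over ovary, 1.09 (SE 0.15, adjusted p = 5.26e-04), was 0.29 with median centring and no longer called.

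The eIF5A proteins, which carry hypusine and ease peptide bonds at proline stretches, come from eif5a and eif5a2. Both eif5a probe sets were lower in ovary than in male body, with log2 differences of -1.31 (SE 0.08, adjusted p = 9.79e-06) and -2.84 (SE 0.20, adjusted p = 1.7e-05). For eif5a2 the probe set with 7026, 7797 and 6591 in ovary and 3273, 2702 and 3406 in testis was female-enriched (-1.19, SE 0.12, adjusted p = 1.44e-04), and the other was male-enriched by 0.59 (adjusted p = 0.00153) and became -0.21 with median centring.

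Elongation factor genes differed between the gonads in both directions. eef1a1l3, a form of eEF1A, gave 8083, 7164 and 5165 in ovary, 54.4, 74.2 and 55.6 in testis and 92.4, 74.6 and 121.3 in male body. On female body 1, 2 and 3 it gave 4601, 2249 and 1328. Ovary was 110-fold above testis (log2 difference of testis against ovary -6.78, SE 0.22, adjusted p = 1.37e-06), and 71-fold above male body (log2 6.15, SE 0.24, adjusted p = 1.68e-06). Its excess in ovary over female body, 1.48 (SE 0.43, adjusted p = 0.0203), was not called in 4 of the 6 fits without 1 array. Frog oocytes hold a storage form of eEF1A bound to tRNA, and whether eef1a1l3 is its counterpart is not addressed by these data.

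eef1a1a, in contrast, was lowest in ovary. It gave 26.2, 6.2 and 15.7 in ovary, all under the floor, 549, 442.2 and 555.2 in testis, 877.1, 1203 and 1020 in male body and 198.1, 432.6 and 440.1 in female body. It was at least 16-fold higher in testis than in ovary (adjusted p = 6.25e-06), at least 32-fold higher in male body than in ovary (adjusted p = 1.17e-06) and at least 10.5-fold higher in female body than in ovary (adjusted p = 3.37e-04). In testis against male body it was lower by 1.00 on the log2 scale (SE 0.18, adjusted p = 0.00224). eef1a1b resembled it on 2 ovary arrays, with 21.0 and 20.5, but gave 441.8 on ovary 2, against 489.3 to 572.6 in testis. Its calls in testis against ovary (2.81, SE 0.98, adjusted p = 0.0379) and ovary against male body (-2.58, adjusted p = 0.0498) were each lost in 5 of the 6 fits without 1 array. Neither held with all 3 scalings. eef1a1l1, the bright general form, was at least 12077 on every array, its range in ovary being 12077 to 13646.

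Of the exchange factors that recycle eEF1A, eef1db was low in ovary, at 1602, 1590 and 1506 against 3924, 4100 and 4127 in testis and 5559, 5054 and 4405 in male body (log2 1.37 in testis against ovary, SE 0.09, adjusted p = 2.17e-05). eef1b2 and eef1g gave 0.10 and 0.07 in testis against ovary without a call, and both were lower in testis than in male body by 0.61 and 0.71 on the log2 scale, differences that became 0.22 and 0.15 with quantile normalization. eef1e1, a component of the complex of aminoacyl-tRNA synthetases, was male-enriched by 1.1 (SE 0.22, adjusted p = 0.00319), a call that did not hold with all 3 scalings. eef1akmt2, a methyltransferase of eEF1A, was higher in testis than in male body by 2.16 (SE 0.28, adjusted p = 4.58e-04) and in ovary by 2.13 (SE 0.27, adjusted p = 2.8e-04), with signals of 148 to 217 in testis, 153 to 218 in ovary and 33 to 58 in male body.

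Among eEF2 genes eef2l2 was high in the bodies and under the floor in ovary. eef2l2, an eEF2-like gene with 3 probe sets, had 4582, 7012 and 4783 in male body by its first probe set, 934.5, 3933 and 3025 in female body, 350.6, 460 and 504.2 in testis and 5.6, 6.3 and 7.7 in ovary. The 4 groups did not overlap for this probe set, with both bodies above testis and testis above ovary. All 3 probe sets were under the floor on all ovary arrays. Male body exceeded ovary at least 167-fold, 148-fold and 67.1-fold, and testis exceeded ovary at least 13.5-fold, 19.0-fold and 4.66-fold, with adjusted p-values of 1.69e-04 or less. The log2 differences of testis against male body were -3.63, -2.96 and -3.85, each called with all 3 scalings. On female body 1 the 3 probe sets were at 17.1% to 26.2% of the male body mean, where muscle markers were at 48%, and the part of muscle in this pattern was not tested. Muscle markers in testis were at medians of 0.581% to 0.655% of the male body mean.

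The general eEF2 gene eef2b was between 7686 and 21983 on every array. It was lower in ovary than in male body by 1.15 on the log2 scale (SE 0.13, adjusted p = 1.42e-04), with all 3 scalings. eef2a.1 was higher in testis than in male body, by 1.42 (SE 0.26, adjusted p = 0.00229), at 197, 315 and 212 against 91, 99 and 76. eef2k, the kinase that inhibits eEF2, was low in ovary, at 21.1, 39.9 and 18.4 against 120.3, 275.3 and 141.3 in testis (log2 2.28, SE 0.33, adjusted p = 7.07e-04) and 245.4, 455 and 257 in male body (ovary against male body -3.15, SE 0.28, adjusted p = 4.6e-05). Since 2 of the 3 ovary signals were under the floor, these sizes depend on it, and with quantile normalization they were 1.38 and -2.40. For the release factor gene etf1b, 1 of 4 probe sets was female-enriched (-1.07, SE 0.15, adjusted p = 6.06e-04), with 4150, 3653 and 4018 in ovary against 1528, 2092 and 2070 in testis, and the other 3 were not called. In ovary against male body the probe sets of etf1b were called in opposite directions, 1.17 and -0.73, and the second became 0.49 with quantile normalization.

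Gonads and bodies were also compared for all members. In testis against male body 29 of 81 probe sets were testis-upregulated (higher in testis than in the body of the same sex) and 14 lower, against 29.2% and 29.9% of all probe sets, 59.1% of which were called in either direction. Of these, 22 and 9 held with all 3 scalings (26% and 26.1% of all). In ovary against male body 33 were higher and 32 lower (31.2% and 43% of all), and 34 and 31 had groups that did not overlap (32.2% and 44.8% of all). Of these calls, 28 and 14 held with all 3 scalings (30.4% and 29.8%). In ovary against female body 24 were ovary-upregulated and 23 lower (28.2% and 29.5% of all), and 19 and 9 held with all 3 scalings (26.2% and 18.4%). The number higher in ovary than in female body was 11 without ovary 1 and 15 without female body 2. Such fits have fewer arrays for every probe set, and counts over all probe sets are not given for them. Whether the fall was particular to the factors was not tested. With median centring the split was 42 and 10 in ovary against female body and 44 and 14 in ovary against male body. For all probe sets it was then 6478 higher and 3107 lower against female body, and 6099 and 5180 against male body.

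**Figure D3:**
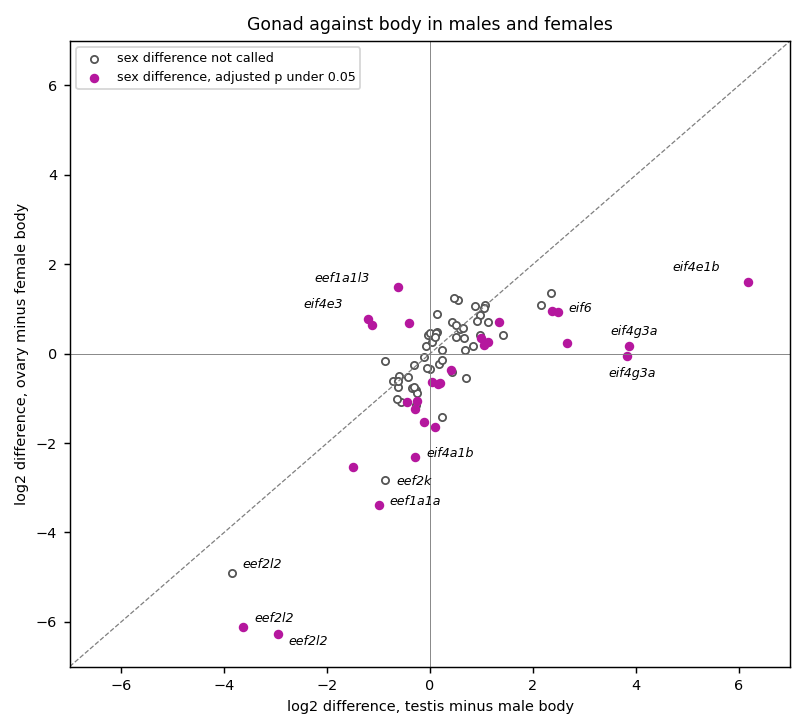
Log2 difference of each probe set between testis and male body (x axis) and between ovary and female body (y axis), with a dashed line of equality; purple points differ between the sexes at an adjusted p under 0.05. eif4e1b (6.18 against 1.60) and the eif4g3a probe sets lie below the line at right, eef1a1l3 and eif4e3 lie above it at left, and the eef2l2 probe sets lie at the lower left.

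The difference between gonad and body was tested between the sexes as testis minus male body less ovary minus female body. It was higher in males for 24 probe sets and lower for 4, against 23.1% and 12.6% of all probe sets. With median centring the split turned to 10 and 25, and that of all probe sets from 3476 and 1902 to 2019 and 4335. With all 3 scalings 10 were higher (eef1a1a, 2 of eef2l2, eif3c, eif4a1b, eif4e1b, 3 of eif4g3a and eif6), against 11.1% of all probe sets, and the same number of 4 was lower (eef1a1l3, both of eif4e3, and eif4ebp3l), against 11.5%. For eif4enif1, which was higher in gonad than in body by 1.05 in males and 1.01 in females, the difference was 0.04 (SE 0.43, adjusted p = 0.955).

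Fewer calls came from the bodies without gonads. In male against female body 3 probe sets were higher (eef1a1a, eef1a1b and a probe set of eif1axb), 11 were lower and 67 were not called, where 18% of all probe sets were higher and 12.9% lower (30.9% in either direction). These calls rest on the signals of 1 algorithm. The study required significance with each of its 4 algorithms and found no probe set that met this between the bodies. It listed some when 1 algorithm sufficed. The bodies did not overlap for 11 factor probe sets higher in males and 20 lower (31.3% and 19.3% of all), and all 14 calls held with all 3 scalings (15.5% and 12.7% of all). The lowest were eif4e1b, eef1a1l3 (-4.67, SE 0.44, adjusted p = 4.27e-04) and eif4enif1 (-2.23, SE 0.37, adjusted p = 0.00673). The others were single probe sets of eif4g2a, eif1axa, eif5a2, eif4ea, etf1b, eif2a, eif2s1a and eif5b. The number lower was 4 without male body 1 or female body 2, 5 without male body 3 and 7 without male body 2, and the number higher was 1 without male body 2 and 0 without male body 3. Counts over all probe sets are not given for these fits, so the changes cannot be read as particular to the factors. With the replicate block, which here joined different fish of the same number, 6 were higher, among them 2 probe sets of eef2l2 (adjusted p = 0.036 and 0.0396), and the calls for eif2a and eif2s1a were lost. On female body 1, 2 and 3 eif4e1b was at 51.7%, 34.8% and 19.7% of the ovary mean, eef1a1l3 at 67.6%, 33% and 19.5% and eif4enif1 at 81.8%, 45.1% and 32.5%. The order of the arrays was that of the oocyte markers for each of these genes. Of the other probe sets lower in male body, those of eif4g2a, eif5a2, eif4ea and eif2a had this order too. Those of eif1axa, eif2s1a, eif5b and etf1b did not, being highest on female body 1 but lowest on female body 2. The part of ovarian RNA in these calls was not tested.

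**Figure D4:**
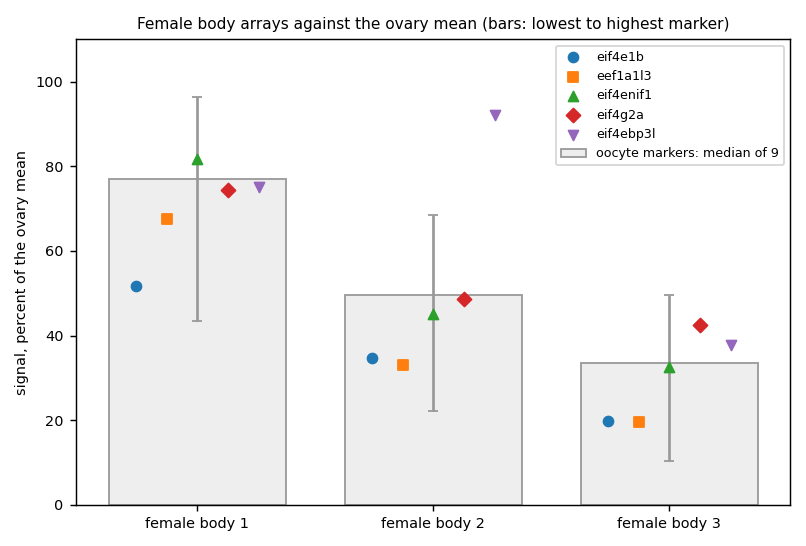
Signal on the 3 female body arrays as a percentage of the ovary mean, for 5 factor genes (points) and the median of 9 oocyte markers (grey columns, with lines from the lowest to the highest marker). All are highest on female body 1 except eif4ebp3l, which is highest on female body 2, and the marker medians are 77.1%, 49.5% and 33.6%. eif4g2a is shown by its brighter probe set only. The dimmer one, not shown, ran the other way, with 216.7, 292.9 and 396.6 on female body 1, 2 and 3, all above its ovary signals.

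Ratios of 2 paralogs on the same array do not change when an array is multiplied by a constant, floored values aside, but they can change with quantile normalization. Only their differences between groups can be read, since probe sets differ in brightness. With 3 arrays a side an exact permutation test cannot go below 0.1, so ratios are given by their values. The log2 ratio of eif4e1b to eif4ea was 1.31 to 1.5 in testis, 0.58 to 0.99 in ovary and -3.96 to -3.85 in male body. That of eef1a1l3 to eef1a1l1 was -1.23 to -0.76 in ovary, -8.42 to -7.99 in testis and -8.55 to -7.79 in male body. In female body the ratios were -0.21 to 0.47 for eif4e1b to eif4ea and -4.40 to -1.89 for eef1a1l3 to eef1a1l1, between ovary and male body for each pair. The balance of the eIF4E pair was thus higher in both gonads and in female body than in male body, and that of the eEF1A pair was higher in ovary and female body than in testis and male body.

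The ratio of eef1a1a to eef1a1l1 was lower in ovary than in testis by at least 3.49 on average, since eef1a1a was under the floor on every ovary array, and it was below every array of the other groups. For eif4a1b over eif4a1a it was -2.34 to -2.25 in ovary, 0.68 to 1.2 in testis and 0.57 to 1.5 in male body. For eif3eb over eif3ea the gonads overlapped, at -2.72 to -2.44 in testis and -2.93 to -2.67 in ovary, and both were above male body at -5.08 to -4.94. The ratio of eif2s1a to eif2s1b was 0.63 to 0.93 in ovary and below 0 in testis (-1.11 to -0.55) and male body (-1.56 to -0.94). That of eif3hb to eif3ha was higher in testis than in ovary by 1.49 on average, with no overlap, and by 0.84 with quantile normalization.

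**Figure D5:**
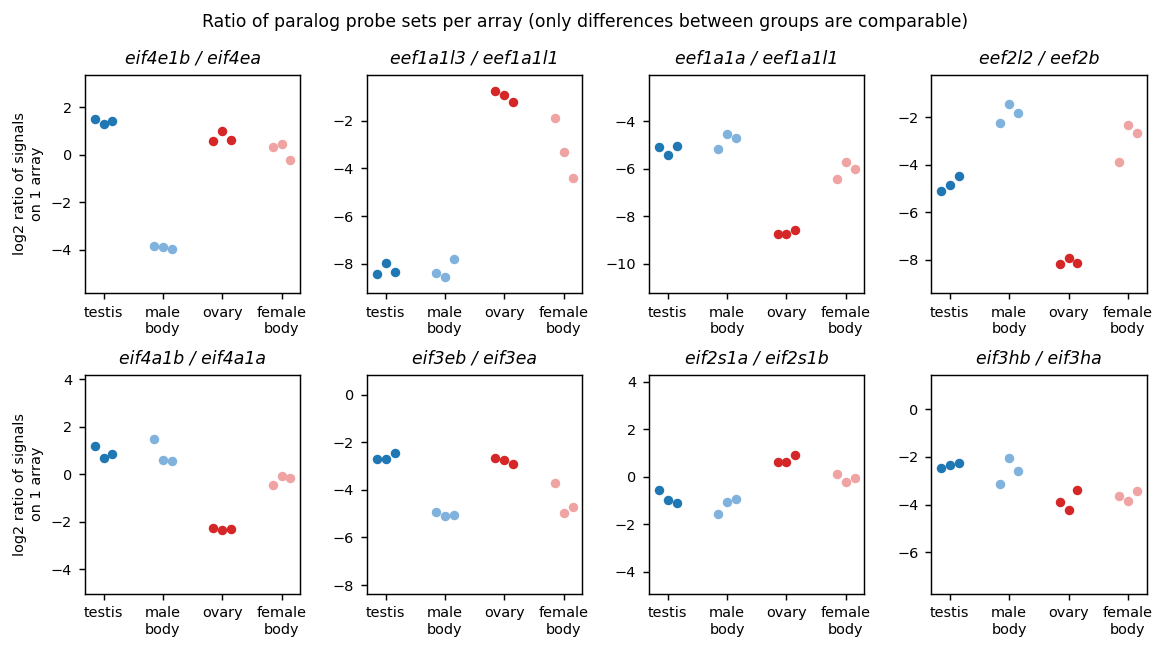
Log2 ratio of the signals of 2 paralog probe sets on each array (points) by group for 8 pairs, each panel spanning the same number of log2 units; signals under 32 were set to 32, which makes ratios with such a signal bounds. The ratio of eif4e1b to eif4ea is low in male body alone, eef1a1l3 to eef1a1l1 is high in ovary, with female body between, and eif4a1b to eif4a1a is low in ovary.

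Further genes of the translation machinery, 43 with a named probe set, were counted beside the factors. Each was represented only by its probe set of highest mean log2 signal. Other probe sets of these genes were not looked at, whereas the shares over all probe sets include dimmer ones. In testis against ovary 15 were higher and 16 lower (42.5% and 24.4% of all probe sets), and 7 and 16 held with all 3 scalings (24.2% and 24.6% of all). In ovary against male body 25 were higher and 10 lower (31.2% and 43% of all), and 22 and 8 held with all 3 scalings (30.4% and 29.8% of all). pabpc1l, an oocyte form of the poly(A)-binding protein, averaged 5118 in ovary, 119.2 in testis and 27.9 in male body (log2 7.24 in ovary against male body, adjusted p = 1.24e-07), and cpeb1b, of the family that controls polyadenylation of stored mRNAs, averaged 10290, 304.9 and 53.3 (7.62, adjusted p = 3.16e-07). pabpc4 had the opposite order, at 43.3 in ovary, 303.4 in testis and 7666 in male body (-7.42 in ovary against male body, adjusted p = 1.21e-06). Of the MNK kinases, which phosphorylate eIF4E, mknk1 (2.83, adjusted p = 1.41e-05) and mknk2a (2.45, adjusted p = 5.85e-06) were higher in ovary than in male body. The third, mknk2b, was lower (-4.56, adjusted p = 7.47e-06).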

How the data were processed

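RNA of 12 samples was hybridised to 1 Affymetrix Zebrafish Genome array each. The intensities deposited by the authors are GCOS 1.2 signals, a robust mean over probe pairs with mismatch subtraction, brought to a common mean over each array once the top and bottom 2% were trimmed. GC-RMA and the other algorithms of the study were not analysed here, and depth has no meaning for arrays, whose number limits the precision.

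Of 15617 probe sets 115 controls were left out. Values below a floor of 32 were raised to it and log2 values taken. A probe set that never exceeded the floor in a comparison was not tested in it. Pairs of groups were fitted with only their 6 arrays, and the sex difference on all 12, with lmFit and eBayes (intensity trend) of limma 3.58.1 in R 4.3.3. P-values were adjusted by Benjamini-Hochberg over all probe sets tested, with a threshold of 0.05, and the steps were tested on simulated data. Folds are 2 raised to a log2 difference, and where all 3 arrays of a group were floored the fold is given as "at least". Python 3.11.15 with pandas 2.3.3, NumPy 2.4.6, SciPy 1.17.1 and matplotlib 3.10.9 served for tables and plots.

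Of the probe sets analysed 10795 had 1 symbol in the array's annotation, 135 had several and 4572 had none listed. The text names the 10 members of largest difference per comparison of 2 groups, among calls with groups apart. For the sex difference it names up to 5 calls per direction, and overlap was not considered. Also named are all members of the eIF4E, eIF4E inhibitor, eIF4G, eIF4A, eIF5A, eEF1A and eEF2 families. Members at the floor in a group and the highest and lowest of each role are named too. The other eIF1A, eIF5, eIF3, eIF2, eIF2B, exchange factor and translation genes named were chosen after their values were seen. The members and lists were chosen with earlier results of these data known. Of the members 3 have the suffix _a_at and 2 the suffix _x_at, which can match related transcripts, so near copies cannot be fully told apart.

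Same-numbered gonad and body arrays deviated together from their group means (r of 0.278 to 0.311 for testis and male body and 0.239 to 0.345 for ovary and female body over 8371 probe sets, below 0 for all other pairs). Deviations within a group sum to 0, so positive values for same-numbered pairs draw the other pairs down. Numbers were taken to pair gonad and body in the replicate block only, and the main fits had no pairing term. Between males and females the block joined different fish of the same number. Alternatives were floors of 16, 64 and 100, no filter, a filter on a mean of 200, median centring, quantile normalization, the replicate block, no trend, a joint fit of the 12 arrays, the methods' t-test and leaving out each array. Here the methods' t-test was a pooled-variance t-test on floored log2 GCOS signals alone. It did not repeat the study's requirement of significance with every algorithm.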

Additional observations from a re-analysis of the deposited data

Results flagged for a closer look

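The 9 probe sets flagged here had the largest sex differences among the calls in each direction, by limma with Benjamini-Hochberg adjustment. The gonad-body difference itself was tested between the sexes. It was larger in males for eif4e1b (4.58, SE 0.39, adjusted p = 5.05e-06), with 6.18 in males and 1.60 in females. For this gene testis against ovary was -0.39 and male against female body -4.96, so the value lay mostly between the bodies. The gonad-body difference was also larger in males for eif4g3a, with 3.86 (SE 0.41, adjusted p = 2.98e-05) and 3.69 (SE 0.56, adjusted p = 3.69e-04) on 2 probe sets, where the females had -0.04 and 0.17, and its other probe set gave 2.43 (adjusted p = 0.00441). For eef2l2 the difference was 3.31 (SE 0.49, adjusted p = 2.84e-04) and 2.5 (SE 0.59, adjusted p = 0.00636), both gonads being lower than the bodies, and 1.06 on the other probe set, which was not called (adjusted p = 0.218). The ovary was under the floor for eef2l2 and the male body for eif4e1b, so these differences are at least as large as given, and the 2.5 of eef2l2 was not called with a floor of 64 (adjusted p = 0.0728) or 100 (adjusted p = 0.29).

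It was smaller in males for eef1a1l3 (-2.11, SE 0.53, adjusted p = 0.00899), for eif4e3 (-1.98, SE 0.37, adjusted p = 0.00142, and -1.09, SE 0.22, adjusted p = 0.00216) and for eif4ebp3l (-1.78, SE 0.54, adjusted p = 0.0227, lost in 3 of the 12 fits without 1 array). The female term of each value uses the female body arrays, on which oocyte markers were at 77.1%, 49.5% and 33.6% of the ovary mean, and the part of ovarian RNA in these values was not tested.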

How the results depend on the processing

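Median centring moved the counts, and the cause was not tested, to 15 higher and 34 lower in testis against ovary, 42 and 10 in ovary against female body, 14 lower in ovary against male body, and 10 and 25 for the sex difference, with medians over the factors of -0.32 in testis against ovary and -0.37 for the sex difference. The counts over all probe sets moved in the same direction in each of these comparisons. Quantile normalization left 9 lower in testis against male body, where 4234 of all probe sets were lower against 4475 in the main fit. In male against female body the number higher was 5 with the filter on a mean of 200, 8 in 1 fit of all arrays, 6 with the replicate block and 0 with the methods' t-test, which called 7 lower. Over all probe sets the numbers higher were 1981, 4027, 2723 and 622 in the same order, with 762 lower in the t-test. The main fit called 2688 higher and 1925 lower. Leaving out 1 array gave 0 to 4 higher and 4 to 12 lower in male against female body, and 11 to 27 higher in ovary against female body. For these fits counts over all probe sets are not given, so the ranges cannot be read as particular to the factors.

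With median centring the sign turned for 13 of 61 called members in testis against ovary, 8 of 65 in ovary against male body, 4 of 47 in ovary against female body and 5 of 28 for the sex difference, and with quantile normalization for 5 of 43 in testis against male body and 1 of 65 in ovary against male body. How many of all called probe sets turned is not given, so these numbers cannot be read as particular to the factors. The median of all probe sets in testis against ovary moved from 0.36 to -0.15 with median centring. Of the members named by rule, with median centring it turned in testis against ovary for eif4a3 (-0.17), eef1a1l1 (-0.29), eif2b5 (-0.15), eif5a2 (-0.21) and eef2b (-0.30), and in ovary against male body for eif2s2 (0.26) and eif5a2 (0.36). With quantile normalization it turned in testis against male body for eef1g (0.15), eif5a (0.40), eef1a1l1 (0.24) and eef2b (0.0463), and in ovary against male body for etf1b (0.49). Over the alternatives to the named results, 2663 values kept direction and call, 228 lost the call and 12 turned. The replicate block changed the count by over 1.5 times only for the number higher in male against female body.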

Other observations

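For some factors the same array number stood out in every group. The genes given here were chosen after their values were seen. eef2k was highest on array 2 of all 4 groups, at 275.3 in testis, 455 in male body, 39.9 in ovary and 634.9 in female body, against 18.4 to 257 on the other arrays. eif4g3b was highest on array 1 of all 4 groups, at 563.7, 348.4, 194.5 and 280.9 in testis, male body, ovary and female body, against 55.7 to 311 elsewhere. With the replicate number as a block both gained calls in limma: eef2k in testis against male body (-0.87, adjusted p = 0.00918) and eif4g3b in the same comparison (0.70, adjusted p = 0.0379) and in ovary against male body (-0.92, adjusted p = 0.0169). Such gains follow from the choice of genes, because the block removes the shared array order they were picked for. They are thus no evidence for a pairing, and in ovary against male body the block joined different fish.

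The spread between arrays of a group, as the median coefficient of variation over the 81 probe sets, was 8.99% in ovary, 12% in testis, 12.7% in male body and 17.7% in female body.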
